A study of Mus musculus with 12 samples.

Results

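The comparison described here sets 3 libraries of tumour CD11c+ cells from mice given 20 Gy of radiation alone against 3 libraries from mice left untreated, across all genes. The 6 libraries were taken by their treatment labels out of 12 in the series. All came from wild-type mice bearing B16-OVA tumours, a transplanted melanoma line that carries chicken ovalbumin as a model antigen. Tumours grew for 10 days, the 20 Gy dose was given on day 10, and tumours of every group were collected on day 17, which was 7 days after irradiation. Live cells positive for CD45, the surface phosphatase of white blood cells, and for CD11c, an integrin chain, were sorted by flow cytometry after collagenase and DNase digestion. The remaining 6 libraries came from mice given a fusion protein, first 20 mcg at the time of irradiation (day 10) and later 10 mcg (day 14), either alone or with the same 20 Gy (called combined below). Whether each library is a different mouse is not stated in the labels, and the p-values therefore reflect only how far these samples vary, some of which may be technical. The mice's age is not given in the sources used here.

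CD11c is carried by conventional dendritic cells, which take up and present antigen, and also by many macrophages, monocyte-derived cells, plasmacytoid dendritic cells and activated NK cells. Ionizing radiation breaks DNA, activates the p53 pathway and kills tumour cells. Dying cells release nucleic acids, haem and stress signals, and an irradiated tumour is known to draw in monocytes and neutrophils over the following days. Conventional dendritic cells of type 1 (cDC1) are known for taking up dead cells and cross-presenting their antigens, while mature dendritic cells express Ccr7 and, in tumours, the chemokines Ccl22 and Ccl17, which attract regulatory T cells.

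The sorted markers were present in every library. Ptprc, which encodes CD45, had 30925 to 47792 normalized counts, and Itgax, which encodes CD11c, had 9497, 4054 and 5560 in untreated libraries 1, 2 and 3 and 7937, 6746 and 4558 in 20 Gy libraries 1, 2 and 3. Values of Itgax overlapped, with a log2 fold change of 0.06 ± 0.43 (SE). Normalized counts are read counts divided by a size factor for each library, and values below are given in these units in the order of libraries 1, 2 and 3. Depth of the 6 libraries was 14462032 to 21572377 reads in genes.

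Library properties differed within the irradiated group. Of 1479 protein-coding receptor genes for odorants, pheromones and trace amines, which white blood cells do not normally express, 84.85% had a read in 20 Gy library 1 and 64.71% in library 2, against 14.27% in library 3 and 5.54% to 23.6% in the untreated libraries. The group means were 54.61% ± 36.36 (SD, n = 3) and 14.33% ± 9.04 (SD, n = 3), and an exact two-sided permutation test gave p = 0.2, where the smallest p that 3 against 3 libraries allow is 0.1. Mitochondrial genes held 11.79%, 11.62% and 18.57% of reads after 20 Gy and 8.26% to 9.27% without treatment. Among the genes counted are also 9 predicted protein-coding genes that were chosen after their values were seen, 6 of them on chromosome 9 between 3000922 and 3038316, and all 9 did not overlap between groups and were highest in 20 Gy library 1. The most abundant, Gm10800 (GRCm38 chromosome 2, 98666547 to 98667301), had 1580, 3642 and 5950 counts without treatment and 28849, 18529 and 8211 after 20 Gy. The same 20 Gy libraries, 1 and 2, were thus high in receptor genes and in Gm10800, and library 3 was nearer to untreated samples in both. The part of these properties in the differences below was not tested, and the length-scaled level of the receptor genes is given beside low-count genes.

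**Figure D1:**
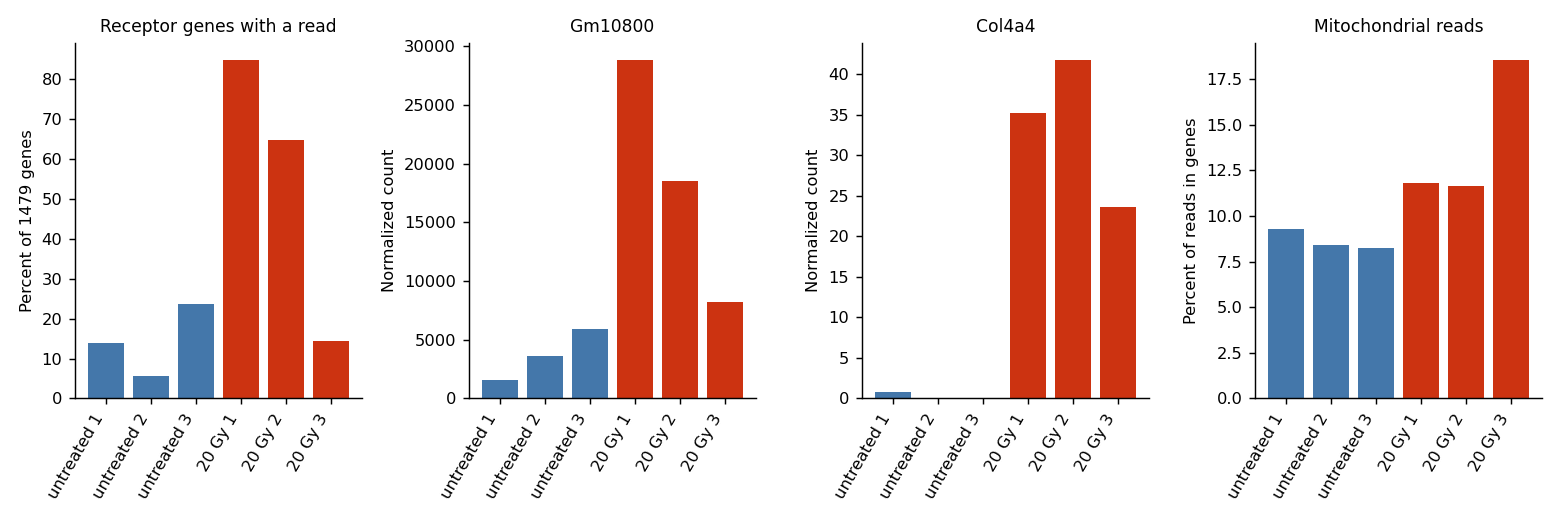
Bars give, for each of the 6 libraries, the percent of 1479 receptor genes with a read, the normalized count of Gm10800, the normalized count of the collagen gene Col4a4 and the percent of reads in mitochondrial genes. Receptor genes and Gm10800 are highest in 20 Gy libraries 1 and 2, Col4a4 is near 0 in all untreated libraries, and mitochondrial reads are highest in 20 Gy library 3.

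Over all genes, no gene passed the test of 20 Gy against untreated. By limma on log2(normalized count + 1), 0 of 18274 tested genes (0.0%) had an adjusted p under 0.05, and the smallest adjusted p was 0.282. At an unadjusted p under 0.05 there were 1231 genes (6.74%), 881 higher after 20 Gy (4.82%) and 350 lower (1.92%). The 3 values of 1 group all lay outside the range of the other in 1229 genes higher after 20 Gy (6.73%) and 875 lower (4.79%). These shares are the background for each count without overlap that is given below for a list. Deviations from the group means correlated at 0.496, 0.156 and 0.456 between untreated and 20 Gy libraries numbered 1, 2 and 3. For number 2 this was weak, and 20 Gy library 2 correlated more with untreated library 1 (0.351). What the number marks is not in the labels. With the replicate number as a block limma called 70 genes (0.383%), 57 higher (0.312%) and 13 lower (0.0711%). A gene is said below to rise or fall only where it passed with this block. The margin was narrow: adjusted p-values of the 70 lay between 0.0374 and 0.0488, and between 0.282 and 0.744 without the block. The blocked count was 0 when 20 Gy library 2, 20 Gy library 3 or untreated library 2 was left out, 2 without untreated library 3, 105 without 20 Gy library 1 and 307 without untreated library 1, and it was 0 by blocked edgeR, with a receptor level covariate, with a higher count filter or with only the 6 libraries in the fit.

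All 70 genes differed in the same direction within each of the 3 numbers, which held for 41.0% of all genes. The blocked fit selects for such agreement, so it lends the calls no further support. The higher genes had log2 fold changes of 0.85 to 5.81 and the lower genes of −1.40 to −0.74. Of the 70, 48 had a mean of at least 200 normalized counts in the higher group and 10 had less than 50 in both. In 55 of the 70 the groups did not overlap. By type, the genes that rose included a pair of heat shock chaperones, secreted and surface proteins of neutrophils and monocytes, proteins of phagocytes, red cell genes and matrix genes. The genes that fell included Prkcq, Nlrc3, Adamts14, Tnk2 and Spry2.

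**Figure D2:**
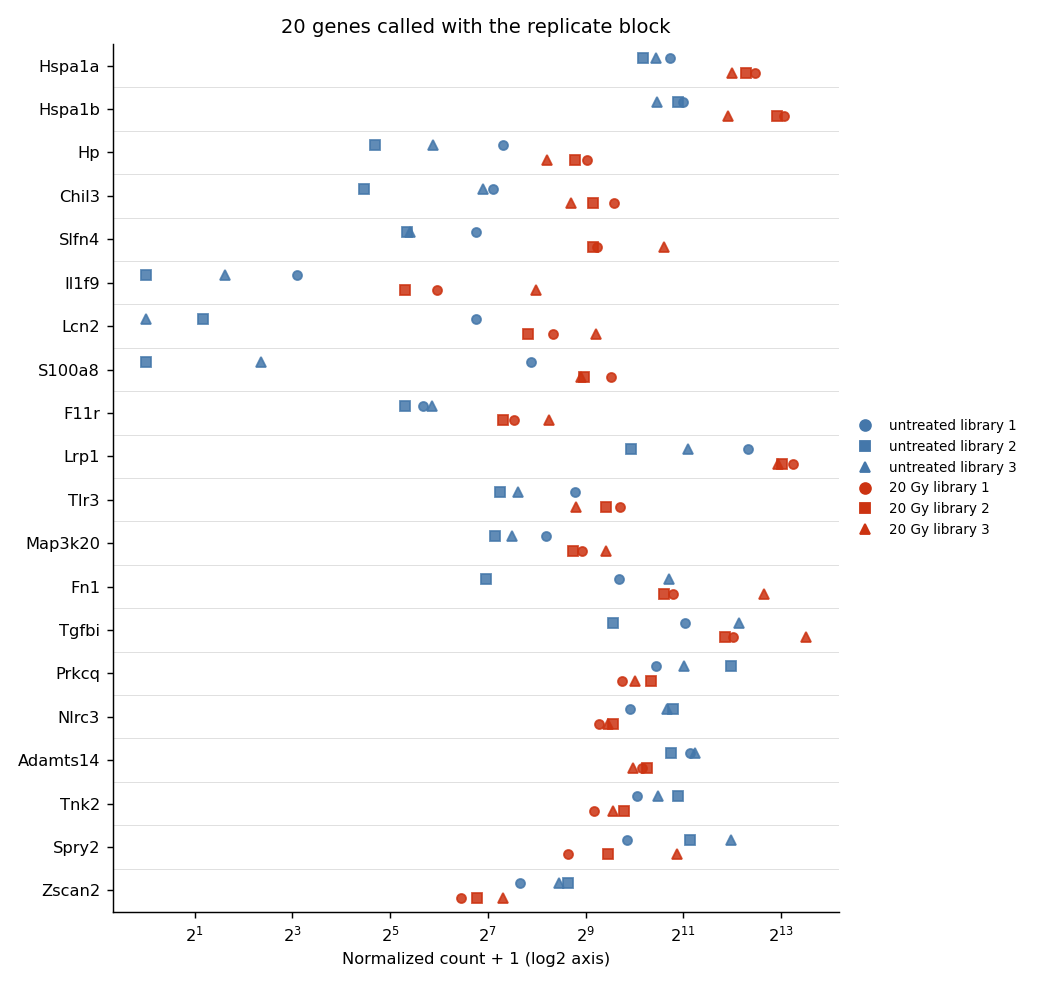
Each point is the normalized count plus 1 of 1 library on a log2 axis for 20 of the 70 genes called with the replicate block, with untreated libraries in blue, 20 Gy libraries in red and the marker shape giving the library number. The 3 values of Hspa1a after 20 Gy lie between 4103 and 5651, above the untreated values of 1150 to 1689, while Lcn2 and S100a8 spread widely among untreated libraries.

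The gene of smallest p with the block was Hspa1a, an inducible HSP70 chaperone that holds misfolded proteins during stress (ENSMUSG00000091971.3, GRCm38 chromosome 17, 34969190 to 34972156). It had 1689, 1150 and 1396 counts without treatment and 5651, 4990 and 4103 after 20 Gy. All irradiated libraries were above all untreated ones, and the spread within each group was small, with means of 1411 ± 270 and 4915 ± 777 (SD, n = 3). The log2 fold change was 1.80 ± 0.23 (SE; limma with block, adjusted p = 0.0374, and 0.417 without it), and it stayed between 1.67 and 1.94 when any 1 library of either group was left out. Its neighbour Hspa1b (chromosome 17, 34956436 to 34959238) had 2030, 1898 and 1409 counts without treatment and 8566, 7779 and 3886 after 20 Gy. Hspa1b rose by a log2 fold change of 1.86 ± 0.31 with the block (adjusted p = 0.0438). The genes are near-identical copies, so how reads were divided between them is uncertain.

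The 250 bases before the start site of each gene are shown because the pair moved together and is known to answer to heat shock factor. They are from RefSeq on GRCm38.p6, minus strand, at chr17:34972157-34972406 for Hspa1a and chr17:34959239-34959488 for Hspa1b, and capitals mark the match to the heat shock element core GAANNTTC, a palindrome searched on both strands.
Hspa1a: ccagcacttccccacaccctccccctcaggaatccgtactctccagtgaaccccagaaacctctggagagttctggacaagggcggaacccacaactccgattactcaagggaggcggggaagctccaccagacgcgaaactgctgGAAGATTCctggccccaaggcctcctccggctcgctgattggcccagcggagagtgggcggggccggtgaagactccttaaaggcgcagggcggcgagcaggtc
Hspa1b: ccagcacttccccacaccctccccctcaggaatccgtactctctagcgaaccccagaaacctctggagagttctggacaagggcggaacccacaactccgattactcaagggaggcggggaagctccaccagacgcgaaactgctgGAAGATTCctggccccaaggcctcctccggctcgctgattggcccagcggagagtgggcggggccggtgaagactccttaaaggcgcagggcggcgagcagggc
The promoters differ at 3 of 250 positions counted from the 5′ end (C44T, T47C and T249G, with the base of Hspa1a first). Each holds 1 match, which begins 104 bases before the start, and 6.78% of 27025 promoters of this length hold at least 1. A match is a description of letters and was not shown to be bound.

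The other 16 genes of the heat shock and early response list did not pass. Across its 18 tested members 10 were higher and 8 lower, with a median log2 fold change of 0.03 against 0.04 over all genes. Hspe1, a mitochondrial co-chaperone, had 838, 1018 and 1031 counts without treatment and 1454, 1464 and 1403 after 20 Gy, groups that did not overlap (log2 fold change 0.59, adjusted p = 0.137 with the block). The chaperones Hspa8, Hsp90aa1 and Dnajb1 had log2 fold changes of 0.13, 0.11 and 0.04. The early response genes, which rise within minutes of tissue handling, had values from −0.87 for Junb to 0.27 for Atf3, and Jun, Fos and Egr1 had −0.34, −0.21 and −0.61. The irradiated libraries were all above the untreated ones in the HSP70 pair and Hspe1, and in none of these 5 early response genes. The HSP70 pair belongs to the same list, which was drawn up for cell dissociation as well as heat shock. The part of tissue handling in the rise of the pair was not tested.

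Genes of neutrophils, short-lived phagocytes that carry granule proteins against microbes, were higher after 20 Gy in all 24 members tested, where 53.3% of all genes were higher and 46.7% lower. Of 28 list genes, 2, 11 and 7 were at 0 without treatment and 0, 0 and 3 after 20 Gy. Genes near 0 without treatment can reach the test through irradiated or fusion protein libraries, so this count is in part set by the filter. The same limit holds for the red cell, fibroblast, melanoma and matrix lists. The neutrophil median log2 fold change was 2.79, and it stayed at 1.89 or above when each library was left out. In 11 of the 24 the groups did not overlap, and 3 rose with the block. Lcn2, which binds bacterial iron carriers, had 108, 1 and 0 counts without treatment and 323, 225 and 590 after 20 Gy (5.81 ± 1.08, adjusted p = 0.0488 with the block). S100a8, a subunit of calprotectin, had 234, 0 and 4 without treatment and 733, 503 and 476 after 20 Gy (5.72 ± 1.02, adjusted p = 0.0475). In both genes untreated library 1 stood well above the other untreated libraries, and each irradiated library was above it. Fpr2, a receptor for formylated peptides and other danger signals, had 22, 11 and 7 against 134, 49 and 102 (2.74 ± 0.39, adjusted p = 0.0438). The partner S100a9 had 611, 22 and 17 against 2004, 1465 and 1450 and missed the threshold (adjusted p = 0.0714 with the block), as did the chemokine receptor Cxcr2 with 51, 2 and 12 against 178, 120 and 64 (0.0656). Ly6g, the surface antigen that defines mouse neutrophils, was at most 13.2 counts in any of the 6 libraries. In a sort of many cells, more cells of a type and more RNA per cell cannot be told apart.

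Red cell genes followed the same libraries. All 16 tested members were higher after 20 Gy by a median of 3.46, which stayed between 2.26 and 4.96 with each library left out and was 1.51 with the receptor level as a covariate, and the groups did not overlap in 6. Hba-a2, an alpha globin, had 130, 2 and 8 counts without treatment and 639, 391 and 402 after 20 Gy and rose with the block (4.84 ± 0.90, adjusted p = 0.0488). Hba-a1 (146, 0 and 2 against 458, 363 and 848) and Hbb-bt (76, 1 and 4 against 392, 305 and 158) lay just past the threshold with adjusted p-values of 0.0528 and 0.0506, and Alas2, the first enzyme of haem synthesis in red cells, gave 0.0679. Hba-a1 and Hba-a2 share nearly all of their sequence, as do the beta globins, so their separate values are uncertain. Among block-called genes outside the lists, Ank1, the ankyrin of the red cell membrane skeleton, had 95, 51 and 88 against 255, 223 and 241 (1.65 ± 0.25), and Trim10, which is known for a role in red cell maturation, had 10, 0 and 0 against 110, 99 and 24. Summed counts of the red cell list were 1775, 810 and 843 without treatment and 4989, 3854 and 3782 after 20 Gy. Which sorted cells carried the neutrophil and red cell transcripts is not shown by these data, and the part of these transcripts in the differences of other genes was not tested.

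Monocyte genes were higher in 18 of 20 tested members, and 5 rose with the block. The median was 1.47, between 0.70 and 2.07 with each library left out and 0.48 with the receptor level as a covariate. Hp, haptoglobin, which binds free haemoglobin, had 157, 25 and 58 counts without treatment and 525, 441 and 294 after 20 Gy, without overlap (2.72 ± 0.37, adjusted p = 0.0438 with the block). Chil3, a chitinase-like protein of monocytes and macrophages, had 136, 21 and 119 against 764, 567 and 415 (2.98 ± 0.49). Clec4e, a lectin that senses dead cells and mycobacterial glycolipid, had 127, 12 and 556 against 436, 338 and 3044, with library 3 high in both groups. The matrix proteins Vcan and Fn1, which inflammatory monocytes also make, rose by 3.41 ± 0.61 and 2.23 ± 0.40 on the log2 scale. The defining markers were not called: Ly6c2 had 660, 2287 and 2885 against 601, 1083 and 1891 (log2 fold change −0.61), and Ccr2, the receptor that brings monocytes out of the marrow, had 2992, 3331 and 3952 against 4147, 4298 and 4677 (0.36, adjusted p = 0.403 with the block). Ccr2 values did not overlap between the groups.

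Further inflammatory genes that rose were chosen for mention after their values were seen. Slfn4, a Schlafen gene of myeloid cells that responds to interferon and Toll-like receptor signals (chromosome 11, 83175186 to 83190216), had 108, 40 and 41 counts without treatment and 605, 565 and 1557 after 20 Gy, a log2 fold change of 3.82 ± 0.60 with the block (adjusted p = 0.0438). Il1f9, an epithelial and myeloid cytokine of the IL-1 family, had 7, 0 and 2 against 62, 39 and 253. F11r, a junction adhesion molecule also found on leukocytes, had 50, 39 and 57 against 184, 159 and 302 and was the gene of smallest p without the block among those with a mean of at least 200 (2.08 ± 0.37, adjusted p = 0.371). Acod1, the enzyme that makes itaconate in activated macrophages, had 25, 17 and 360 against 129, 105 and 3305. Il1f9 and F11r showed no overlap, whereas Acod1 in untreated library 3 exceeded 20 Gy libraries 1 and 2.

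Macrophage genes were higher in all 22 tested members by a median of 1.48 (0.77 to 1.88 with each library left out), with none called and 3 without overlap. The complement subunits C1qc (535, 94 and 254 against 687, 564 and 1040) and C1qb (431, 52 and 383 against 605, 569 and 1099) did not overlap, with adjusted p-values of 0.0914 and 0.0852 with the block. Adgre1, which encodes F4/80, had 1486, 250 and 337 against 1330, 1004 and 732, so untreated library 1 was above every irradiated library. Untreated library 1 also held most of the Mertk reads of its group, with 662 counts against 13.7 and 7.2 in the other untreated libraries. Of 21 complement genes 18 were higher (median 1.36, and 0.88 to 1.76), 7 without overlap and with none called, and C3, the hub of the cascade, had 677, 505 and 807 against 1233, 1306 and 2056 (1.19 ± 0.27, adjusted p = 0.0704 with the block).

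Genes for clearing dying cells gave 18 of 22 members higher, with a median of 1.01 (0.55 to 1.53). Lrp1, a large endocytic receptor for calreticulin and apolipoproteins (chromosome 10, 127538161 to 127621148), had 5137, 975 and 2180 counts without treatment and 9653, 8263 and 7892 after 20 Gy. The irradiated libraries were close together and all above the untreated ones (1.95 ± 0.35, adjusted p = 0.0475 with the block). Dock1, which drives engulfment, and Pros1, a bridge to dying cells, had groups without overlap, at 376, 183 and 268 against 538, 464 and 537 and at 109, 67 and 134 against 234, 241 and 225, and missed the threshold (adjusted p = 0.0811 and 0.085). Lipid handling genes were higher in 17 of 20 members (median 0.96, and 0.62 to 1.15), and Lgals3, the lectin galectin-3 of lipid-laden macrophages, rose from 968, 463 and 2653 to 1690, 1594 and 6953 with the block. Haem and iron genes were higher in 17 of 18 (median 0.59, and 0.37 to 0.79), including Hmox1, which degrades haem, at 2184, 60 and 360 against 1708, 1415 and 1539, and only Hp passed. Other phagocyte genes that passed were Cst3, a protease inhibitor abundant in dendritic cells (7541, 4224 and 6989 against 10479, 10200 and 15721), Pla2g7, a plasma phospholipase of macrophages (754, 233 and 292 against 1489, 1340 and 1213), and Tgfbi, a matrix protein of monocyte-derived cells (2102, 754 and 4544 against 4176, 3703 and 11688).

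**Figure D3:**
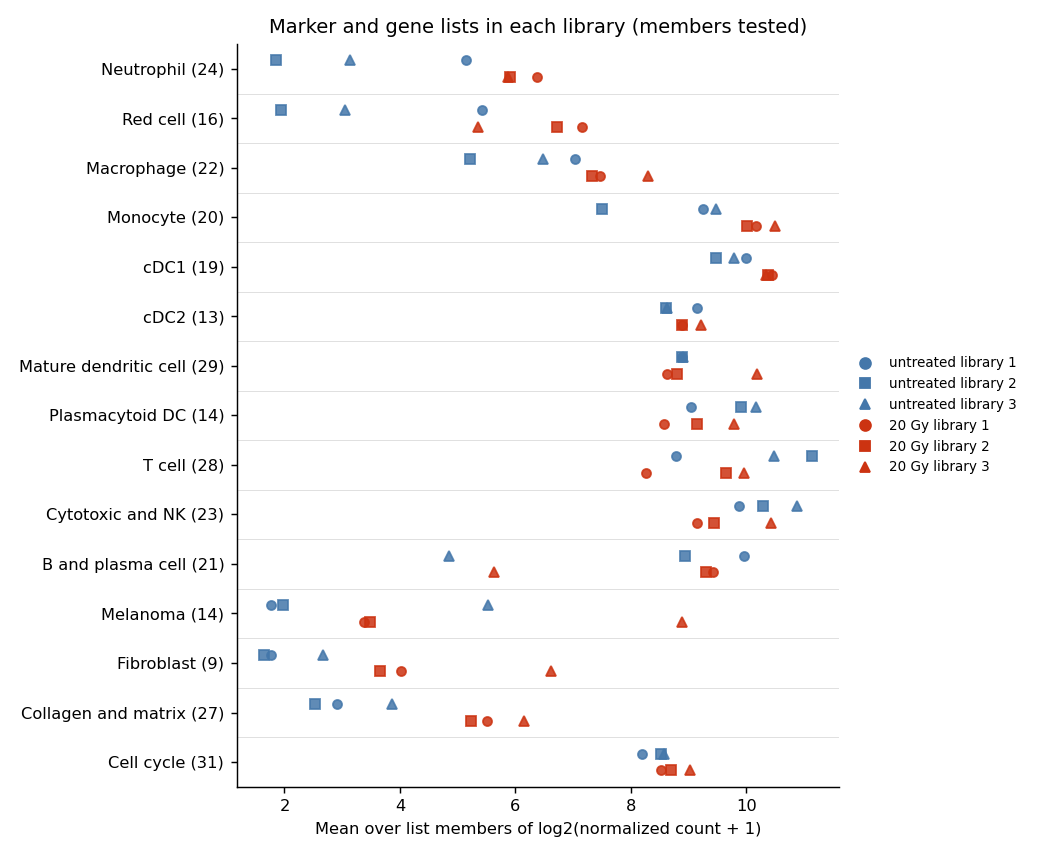
Each point is the mean of log2(normalized count + 1) in 1 library over all counted members of a gene list, tested or not. Untreated libraries are in blue and 20 Gy libraries in red, and the number in brackets gives only the tested members. The cDC1 means lie at 10.34 to 10.44 after 20 Gy and at 9.48 to 9.99 without treatment, whereas the mature dendritic cell and melanoma lists are highest in 20 Gy library 3.

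Among dendritic cell subsets, cDC1 genes were the most even across irradiated libraries. Of 19 tested members 15 were higher, with a median of 0.76 that stayed between 0.60 and 0.97 with each library left out, and the groups did not overlap in 5. Tlr3, an endosomal sensor of double-stranded RNA that cDC1 carry, had 441, 151 and 197 counts without treatment and 832, 684 and 445 after 20 Gy (1.42 ± 0.24, adjusted p = 0.0454 with the block), where the lowest irradiated value was just above the highest untreated one. Xcr1, the chemokine receptor that defines cDC1, had 664, 500 and 501 against 1132, 931 and 903, without overlap, but a log2 fold change of 0.84 ± 0.41 that missed the threshold (adjusted p = 0.315). Clec9a, the receptor through which cDC1 sense dead cells, had 1503, 540 and 651 against 2146, 1691 and 708. The other 4 members of the cDC1 list were lower. Clnk was lower within each number, by −0.41, −0.65 and −0.79 on the log2 scale, and was not called. The cDC2 list had 6 of 13 members higher and a median of 0.00 (−0.10 to 0.48), and Cd209a had 1035, 711 and 862 against 1203, 1099 and 1040 (adjusted p = 0.606). Pan-dendritic genes were higher in 9 of 10 (median 0.40, and 0.17 to 0.78 with each library left out), with Zbtb46 at 0.55 and Flt3 at 0.49, and none passed. Plasmacytoid dendritic cell genes were lower in 12 of 14, Siglech having 1615, 5125 and 5755 against 1300, 2178 and 3231, and none passed. Their median was −0.59, between −0.66 and −0.26 with each library left out and −0.23 with the receptor level as a covariate. In combined minus fusion protein 13 of the 14 were higher, with a median of 0.41.

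The mature dendritic cell program, with 29 tested members, had 22 higher and 7 lower, a median of 0.27 and none called. Without 20 Gy library 3 the median was −0.21, and with the receptor level as a covariate it was 1.14. Ccl22 had 123, 417 and 658 counts without treatment and 105, 274 and 3751 after 20 Gy (log2 fold change 0.56 ± 0.74 with the block, adjusted p = 0.745). Ccl17 had 0, 21 and 27 against 15, 10 and 130. Ccr7, which guides dendritic cells to lymph nodes, had 866, 2378 and 2270 against 390, 683 and 6545, and Fscn1, an actin bundler of mature dendritic cells, had 762, 1832 and 1930 against 454, 955 and 6832. In each of these genes 20 Gy library 3 was the highest of the 6 libraries, while 20 Gy libraries 1 and 2 were at or below most untreated values. Within numbers, Ccl22 differed by −0.23, −0.60 and 2.51, and Ccr7 by −1.15, −1.80 and 1.53, on the log2 scale. Cd274, the checkpoint ligand PD-L1, had 1734, 1137 and 3072 against 1360, 1361 and 7101, and Il12b, a subunit of IL-12, had 130, 51 and 512 against 124, 90 and 2436. Cxcl9 and Cxcl10, which attract activated T cells, were highest in library 3 of both groups, at 1985 and 2604 and at 1494 and 2730. Foxp3, the factor of regulatory T cells, had 52, 629 and 311 against 72, 409 and 688.

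**Figure D4:**
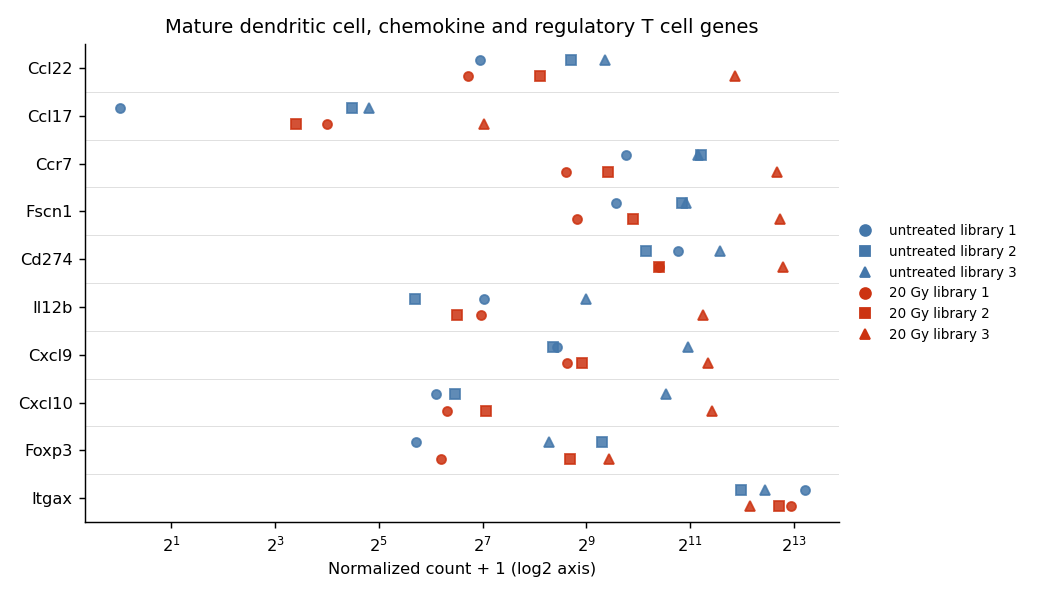
Each point is the normalized count plus 1 of 1 library on a log2 axis for 10 genes fixed for this comparison, with untreated libraries in blue and 20 Gy libraries in red. Triangles mark library 3, which is the highest 20 Gy library in all but Itgax, and the groups overlap in each of the 10 genes.

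The same library carried further inflammatory transcripts. After 20 Gy Cxcl2, a neutrophil chemokine, had 213, 214 and 12365 counts, Ptgs2, the prostaglandin synthase COX-2, had 532, 411 and 17659, Nos2, the inducible nitric oxide synthase, had 15, 18 and 1340, and Arg1, an arginase of suppressive myeloid cells, had 17, 11 and 2327. Untreated library 3 was the highest of its group in these, at 1493, 1895, 18 and 57. Of 27 tested chemokine genes 22 were higher with a median of 1.19, which was −0.07 without 20 Gy library 3, and none was called. Melanoma genes stood apart in the same library: their summed counts were 248, 179 and 2079 without treatment and 371, 369 and 17591 after 20 Gy, with all 14 tested members higher (median 1.94, 0.15 to 3.83 with each library left out and 4.28 with the covariate) and none without overlap. The part of tumour RNA in the other values of that library was not tested.

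Interferon and innate sensing genes were mostly higher by small amounts. Of 39 type I interferon genes 36 were higher with a median of 0.47 (0.25 to 0.68), and Slfn4 was the only one to pass. Siglec1, a sialic acid receptor of macrophages, had 112, 35 and 85 against 172, 122 and 280 and Ifi27l2a had 579, 572 and 590 against 780, 881 and 1446, both without overlap and with adjusted p-values of 0.0588 and 0.0924 with the block. Interferon gamma genes had 13 members higher and 14 lower (median −0.03, and −0.48 without 20 Gy library 3). Innate receptor genes were higher in 23 of 26 (median 0.80, and 0.59 to 1.45), Tlr3 and Clec4e passing, and Tlr4, the endotoxin receptor, had 254, 94 and 96 against 340, 242 and 270. Among 18 genes that sense or digest DNA, 11 were higher and 7 lower (median 0.11, and 0.03 without 20 Gy library 3). Nlrc3, a leukocyte NLR protein known to restrain DNA sensing (chromosome 16, 3945007 to 3976632), fell from 956, 1775 and 1633 to 622, 758 and 703 (−1.02 ± 0.18, adjusted p = 0.0481 with the block). Inhibitory molecules were higher in 23 of 29 (median 0.40, and 0.11 without 20 Gy library 3), of which Lilrb4a, an inhibitory receptor of myeloid cells, rose from 927, 257 and 733 to 1639, 1122 and 2704. MHC class II genes had 12 of 17 higher (median 0.39, and 0.12 to 0.60 with each library left out) and class I genes 6 of 23 (median −0.18, and −0.39 to 0.00), with none called.

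T cell genes were lower in all 28 tested members, by a median of −0.87 that ranged from −1.51 to −0.33 with each library left out, but none passed and no member was without overlap. With the receptor level as a covariate the median was 0.03. Cd3e, a chain of the T cell receptor complex, had 539, 3387 and 2791 counts without treatment and 407, 1385 and 1619 after 20 Gy, and untreated library 1 was below 20 Gy libraries 2 and 3. Lck, the kinase that starts T cell receptor signalling, had 1585, 4775 and 2851 against 973, 1708 and 1608 (adjusted p = 0.0551 with the block). Prkcq, Gimap1 and Grap are in none of the lists. Prkcq, protein kinase C theta, which acts downstream of the T cell receptor, had 1387, 4044 and 2079 against 863, 1292 and 1033 and fell with the block (−1.11 ± 0.19, adjusted p = 0.0438). Gimap1, a GTPase of lymphocytes, fell from 975, 1515 and 760 to 564, 753 and 521, and Grap, an adaptor of lymphocyte signalling, from 976, 1591 and 689 to 620, 842 and 397. Values of Gimap1 were apart by a narrow margin of 753 against 760, and those of Grap overlapped.

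Cytotoxic and NK cell genes were lower in 22 of 23 members, with a median of −0.80 (−1.20 to −0.46), and in 5 the groups did not overlap. Ncr1, the activating receptor NKp46, had 3728, 3889 and 3022 counts without treatment and 2025, 2205 and 1580 after 20 Gy (−0.88 ± 0.21, adjusted p = 0.0735 with the block). Ccl5, a chemokine of cytotoxic lymphocytes, had 7245, 8238 and 9771 against 3048, 3928 and 6663 (−0.96 ± 0.23, adjusted p = 0.0841), and Il18rap, which encodes a signalling chain for IL-18, had 3454, 2589 and 4185 against 1814, 1685 and 2322 (−0.80 ± 0.19, adjusted p = 0.0811). Each of these was lower in every irradiated library than in every untreated one, and none passed. Gzmb and Prf1, the killing proteins granzyme B and perforin, had log2 fold changes of −0.61 and −0.88. B cell genes had 11 members higher and 10 lower (median 0.16), and regulatory T cell genes 3 higher and 12 lower (median −0.12), with medians of −1.64 to 1.52 and of −1.0 to 0.64 when single libraries were left out. With the receptor level as a covariate these medians were −0.67 and 1.51, and that of the cytotoxic and NK cell list was −0.44.

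Further genes fell. Adamts14, a procollagen-cleaving protease that was well detected in these cells (chromosome 10, 61197112 to 61273438), had 2247, 1719 and 2421 counts without treatment and 1146, 1220 and 1001 after 20 Gy (−0.91 ± 0.17, adjusted p = 0.0481 with the block). The irradiated values were close to each other and below all untreated values. Tnk2, a non-receptor tyrosine kinase, had 1069, 1910 and 1424 against 573, 887 and 755 (−0.97 ± 0.14), and Spry2, a feedback inhibitor of growth factor signalling, had 924, 2263 and 4054 against 400, 708 and 1886 (−1.33 ± 0.24). The zinc finger gene Zscan2 showed the largest fall by log2 fold change, from 200, 401 and 352 to 87, 109 and 157 (−1.40 ± 0.24). Atp2a3, a calcium pump of the endoplasmic reticulum in blood cells, fell by 0.74 on the log2 scale.

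Matrix genes were higher in 26 of 27 members with a median of 2.86 (2.17 to 3.38), the groups did not overlap in 15 of the higher members, and Col4a4, Col5a1, Col5a2 and Col6a3 rose with the block while Adamts14 fell. Most of these genes were at or near 0 without treatment, where a fitted fold change depends on the added count of 1. Col4a4, a basement membrane collagen, had 1, 0 and 0 counts without treatment and 35, 42 and 24 after 20 Gy. At the read density of the receptor genes, its length alone would carry 14.8, 9.4 and 1.7 counts in the irradiated libraries. Col5a1, a fibrillar collagen, had 3, 0 and 12 against 51, 35 and 133, where that density gives 11.8, 7.5 and 1.4. Counts thus exceeded the receptor level in all 3 irradiated libraries, and as a ratio by most in library 3. With that level taken off every gene and library, 4 of the 70 genes passed with the block, Il1f9, Col5a1, Hp and Hspa1a. Fibroblast genes had all 9 tested members higher (median 3.08, and 5.18 with the receptor level as a covariate), with summed counts of 42, 44 and 142 against 235, 176 and 3816, and Col1a1 had 8, 4 and 11 against 23, 14 and 923. Other long genes passed at under 50 counts: Srgap1, Eya4 and Erc2 had 34, 19 and 23 counts in 20 Gy library 1, where the receptor density gives 12.7, 13.1 and 13.5. In 20 Gy library 3 they had 80, 24 and 7.9 counts, where it gives 1.5 for each. Syt14 had no read in the untreated libraries and 20, 14 and 12 counts after 20 Gy, where the receptor density gives 16.6, 10.6 and 1.9.

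No gene of the p53 target or DNA repair lists passed at day 17. Dram1, a p53-responsive gene outside these lists, did pass with the block (1.37 ± 0.21, adjusted p = 0.0438) and is described below. The p53 target list had 18 members higher and 13 lower with a median of 0.06 (−0.06 to 0.25 with each library left out), and the groups did not overlap in 1 higher and 1 lower member. Over all genes the groups did not overlap in 6.73% as higher and in 4.79% as lower. Cdkn1a, the cell cycle inhibitor p21 and a main p53 target, had 239, 317 and 4261 counts without treatment and 277, 417 and 5696 after 20 Gy, and Mdm2 had 1625, 1383 and 2240 against 1454, 1535 and 4172. Both varied more between libraries of a group than between groups. Bax, a p53 target that promotes apoptosis, had 237, 172 and 216 against 281, 260 and 313, without overlap and with an adjusted p of 0.202 with the block. DNA repair genes had 12 higher and 19 lower (median −0.08, and −0.19 to 0.08 with each library left out), and the groups did not overlap in 2 higher and 4 lower members. Among the lower members Trp53bp1, a factor that marks double-strand breaks, had 1256, 1374 and 1339 against 1133, 1114 and 958 (adjusted p = 0.262 with the block).

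Cell cycle genes were higher in 22 of 31 members, with a median of 0.36 (0.25 to 0.44 with each library left out), none called, and 10 without overlap. The 10 were Cdk1, Ccnb1, Ccnb2, Ccna2, Bub1, Bub1b, Aurkb, Kif11, Cenpe and Birc5. Cdk1, the kinase that starts mitosis, had 93, 95 and 96 counts without treatment and 196, 171 and 284 after 20 Gy (1.16 ± 0.24, adjusted p = 0.0588 with the block), and Bub1, a spindle checkpoint kinase, had 100, 51 and 94 against 152, 134 and 270 (adjusted p = 0.0582). Birc5, which acts in chromosome segregation, had 148, 140 and 177 against 224, 223 and 330. The replication helicase genes Mcm2 to Mcm7 had log2 fold changes of −0.18 to −0.01, and Mki67, the proliferation marker, had 0.36. In the combined group against fusion protein the median of the same list was −0.17, and the difference between the radiation contrasts was not called for any gene.

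Further genes that rose belong to no list. Map3k20, the stress kinase ZAK that senses stalled ribosomes, had 293, 140 and 180 counts without treatment and 489, 426 and 679 after 20 Gy, without overlap. Atpif1, an inhibitor of the mitochondrial ATP synthase, had 1786, 1246 and 1536 against 2494, 2559 and 3140 and showed the smallest rise of the 57, 0.85 on the log2 scale. Nupr1, a stress-induced nuclear protein, had 148, 42 and 137 against 334, 260 and 288, and Dram1, a p53-responsive autophagy gene, had 96, 49 and 126 against 226, 166 and 277. In all 4 every irradiated library was above every untreated one. F10, clotting factor X, which monocytes and macrophages also make, had 94, 17 and 334 against 414, 274 and 2354, and Gda, guanine deaminase, had 508, 114 and 407 against 1534, 1125 and 915. The acute phase gene Lrg1 had 13, 0 and 0 against 65, 35 and 48, and the metalloreductase gene Steap4 had 4, 1 and 0 against 62, 45 and 52.

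The other lists held few calls. Costimulation and cytokine genes were higher in 18 of 21 tested members (median 0.75, 0.23 without 20 Gy library 3 and 1.70 with the receptor level as a covariate), and TGF beta genes in 13 of 23 (median 0.08), of which Tgfbi passed. Chemokine receptors were higher in 11 of 21 (median 0.09, and 0.76 with the covariate), cell death genes in 13 of 19 (0.21, and −0.09 without 20 Gy library 3), glycolysis and hypoxia genes in 18 of 24 (0.26, −0.47 without 20 Gy library 3 and 1.22 with the receptor level as a covariate) and cholesterol synthesis genes in 11 of 18 (0.06, and −0.36 without it), and none of these last 4 lists had a call. Markers of cells that the sort should hold in small numbers or not at all were detected for few genes: 5 of 7 mast cell and basophil genes, 4 of 5 eosinophil genes, 3 of 5 platelet genes, 3 of 6 endothelial genes and 1 of 4 epithelial genes were higher, with medians of 1.12, 1.20, 1.79, 0.16 and −0.32 and none called. With the receptor level as a covariate the medians were −1.50 for mast cell and basophil, −0.08 for eosinophil and 0.40 for platelet genes. With 1 library left out the mast cell and basophil median was as low as 0.22, the endothelial median lay between −0.42 and 0.62 and the epithelial median between −0.88 and 0.18.

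The same dose was also given with the fusion protein, and combined minus fusion protein compares 6 libraries that are in neither group above, although they share the estimate of spread. It gave 0 calls of 18274 (0.0%). Of the 70 block-called genes 68 (97.1%) had the same sign there, against 68.5% of all genes. Among genes without overlap and with a mean of at least 200 counts, 88.9% of the higher and 87.2% of the lower had the same sign. The median log2 fold change of the 70, with signs kept, was 2.15 in the first comparison and 0.71 in the second. It was 2.69 and 0.86 for the 57 higher genes and −0.97 and −0.48 for the 13 lower genes. The difference of every gene of the 70 was smaller with the fusion protein, which is in part built into a choice made on the first comparison, and the test of the difference itself, an interaction term, called 0 of 18274 genes (0.0%). Slfn4 had 3.82 and 1.69, Il1f9 4.85 and 2.58, Tlr3 1.42 and 1.15, Nlrc3 −1.02 and −0.66, Adamts14 −0.91 and −0.66 and Hspa1a 1.80 and 0.30. With the fusion protein alone, without radiation, Hspa1a had 6972, 2320 and 2651 counts, each above all 3 untreated values. The exceptions in sign were Xlr3b, with 1, 1 and 0 counts without treatment and 29, 30 and 25 after 20 Gy, and the predicted gene Gm45053. Receptor genes with a read were also more numerous in the combined libraries, at 64.1%, 15.15% and 44.56%, than with the fusion protein alone, at 29.07%, 5.41% and 21.84%, and the part of that property in the shared signs was not tested.

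**Figure D5:**
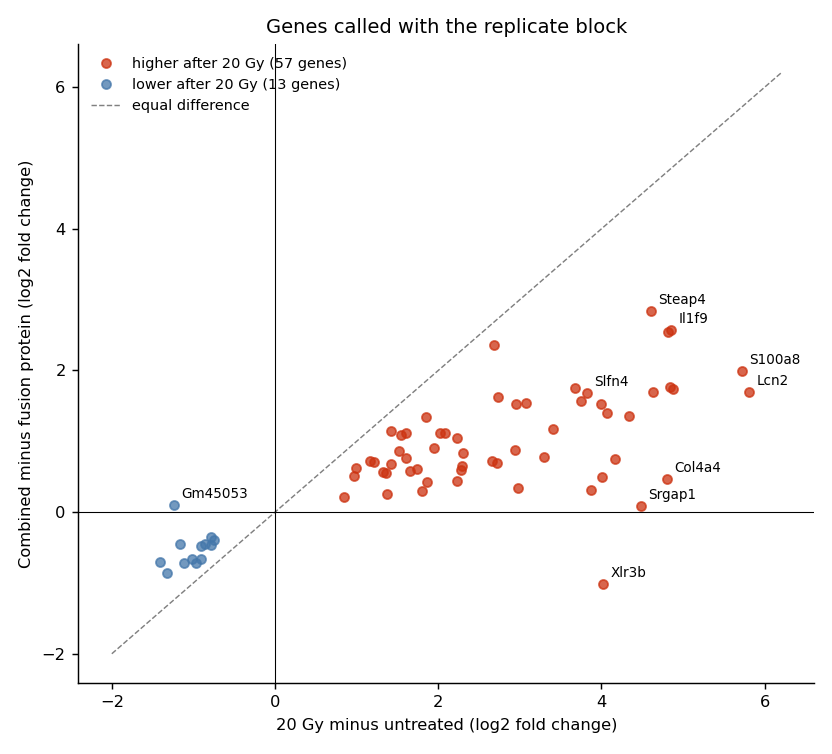
Each point is 1 of the 70 genes called with the replicate block, with the log2 fold change of 20 Gy minus untreated on the horizontal axis and of combined minus fusion protein on the vertical axis, and the dashed line marks equal differences. All but Xlr3b and Gm45053 have the same sign on both axes, and every point lies nearer to 0 on the vertical axis.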

How the data were processed

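RNA of sorted CD45+ CD11c+ tumour cells was made into libraries with a low-input kit for stranded total RNA (Takara SMARTer Pico v2) and sequenced as 100-base read pairs, per the labels' protocols. FastQC, Trimmomatic, STAR, featureCounts, DESeq2 and the build mm10 are named in the submitters' processing notes, with no versions. The authors deposited a signal value per gene and sample, a count normalized with DESeq2, and dividing by each library's recovered step gave whole reads in 100% of values (within 0.001). Of 55401 identifiers, 99.53% matched a GENCODE vM21 symbol, and coordinates are from that annotation (GRCm38).

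The 18274 genes that reached 10 normalized counts in 3 or more of the 12 libraries were fitted on log2(normalized count + 1) with limma 3.58.1 (R 4.3.3) in 4 groups, with a variance trend and 8 residual degrees of freedom. Tests were two-sided, with Benjamini-Hochberg adjustment over all tested genes and a threshold of 0.05. The alternatives included edgeR 4.0.16 and DESeq2 1.42.0 on the recovered reads. Residuals of untreated and 20 Gy libraries with the same number correlated at 0.496, 0.156 and 0.456, so blocked values (6 residual degrees of freedom) are given where they change a call. What the number marks is not in the labels, and 20 Gy library 2 correlated more with untreated library 1 (0.351). On simulated counts of all 18274 genes, the fit without a block found 3 of 67 genes given a log2 change of 1. For changes of 2 and 3 it found 26 of 67 and 39 of 66, and it made 3 false calls. Apart from the set changes, the simulation gave every library the untreated means and a smooth trend of spread. Deviations that many genes of a library share were not in it, and the blocked fit was not simulated, so these rates may differ from those in the real libraries.

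The comparison and the 43 gene lists were chosen with earlier results of these data known. Named genes were 10 chosen for this comparison, the 8 of smallest p and the 6 of largest change in each direction among genes without overlap and with a mean of at least 200 counts, the 6 of smallest p in each direction with the block and a mean of at least 50, and up to 4 members of smallest p and the defining markers of each list described. Other genes named were chosen after their values were seen.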

Additional observations from a re-analysis of the deposited data

Results flagged for a closer look

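Receptor genes for smell, pheromones and trace amines are not genes that these cells are known to express, and the share of them with a read was above the untreated level in a pair of irradiated libraries, at 84.85% in 20 Gy library 1 and 64.71% in 20 Gy library 2. The untreated libraries had 13.86%, 5.54% and 23.6%, and 20 Gy library 3 had 14.27%.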

How the results depend on the processing

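Without the replicate block 0 genes were called, and 70 with it. DESeq2 called 42 (38 higher), of which 19 were among the 70 and 8 were of the 9 predicted genes described above, and array weights called 13, all higher. Each of the other settings called 0. The interaction had 1 call by DESeq2, which was lower, and 0 otherwise. The settings with the block were added after seeing the data: the count was 0 with a filter of at least 50 counts, with only the 6 libraries, with a receptor level covariate and by edgeR, 4 with the receptor density subtracted and 121 with a pseudocount of 10 (64 shared). Leaving out all libraries of a number gave 35 for number 1 (12 shared) and 0 for numbers 2 and 3, and leaving out 1 library gave 0 to 307. The cause of these changes was not tested.

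Of 44 named genes, 35 kept their direction in each alternative run, which were 18 for all but Ccl17, a gene that the filter of 50 counts left out. The other 9 reversed in some. With array weights the log2 fold change was −0.47 for Ccl22, −0.78 for Fscn1, −0.10 for Cd274, −0.12 for Cxcl10 and −0.05 for Foxp3. Ccr7 was 0.47 by DESeq2, 0.45 by edgeR and 1.66 with the receptor level covariate, which gave −0.39 for Itgax. With 1 library left out the ranges were −0.93 to 1.65 for Ccl22, −1.69 to 0.34 for Ccr7, −1.08 to 0.88 for Fscn1, −0.42 to 0.77 for Cd274, −0.51 to 1.87 for Il12b, −0.48 to 1.23 for Cxcl9, −1.02 to 1.98 for Cxcl10, −0.69 to 1.29 for Foxp3 and −0.22 to 0.40 for Itgax. Of list medians under the alternatives, 33 moved by more than the spread between libraries of a group and 741 did not. That spread is wide where 1 library stands apart, so a change of sign can count among the 741. The mature dendritic cell median, 0.27 and −0.21 without 20 Gy library 3, was among them. So was the T cell median, −0.87 and 0.03 with the receptor level covariate. In the simulated counts, with 3 libraries a group and no block, a log2 fold change of 1 was seldom detected.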
